A study of Mus musculus with 24 samples.

Results

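Day 4 and day 5 of a cardiac differentiation of mouse embryonic stem cells were compared by the chromatin regions called accessible on each day. The 56053 peaks of the day 4 (D4) list and the 43341 peaks of the day 5 (D5) list were merged wherever they overlapped by at least 1 bp, which gave 61906 regions; the 12 lists of the whole series gave 128693 regions in the same way. A region was called shared when both lists held a peak in it, D4 only or D5 only when 1 of them did. Of the 61906 regions, 25056 were shared, 24158 were D4 only and 12692 were D5 only.

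The cells were A2lox.cre, an embryonic stem cell line, and the assay was ATAC-seq, in which a transposase inserts sequencing adapters into DNA that nucleosomes leave free. The course ran from the 2i stage, a culture in inhibitors that hold stem cells in a naive state, through D0 to D8, D10 and D15. Both days hold cells that the labels call intermediates of the differentiation, with 2 biological replicates a day and no treatment, genotype or sort that sets the days apart. The labels name 1 peak list for both replicates of a day, so the spread between replicates could not be measured, no test between the days was possible, and every interval given here (Wilson, 95%) covers counting error only.

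In cardiac differentiation, cells leave pluripotency through a stage like the primitive streak, become early mesoderm under Nodal, BMP and Wnt signals, and a share of them goes on to cardiac progenitors that switch on transcription factors such as Nkx2-5, Tbx5, Gata4 and Hand2. Genes of the contractile apparatus follow. Accessible regions at gene starts are mostly common to many cell types, while regions far from starts, which include enhancers, differ more between cell states.

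The D4 list stood apart from its neighbours in the course, and the part of this in the counts below was not tested. Its intervals had a median width of 471 bp, against 535 to 651 bp in the other 11 lists and 553 bp at D5. Peaks whose −log10 q reached 5 or more (q being the false discovery value the authors' peak caller gave each peak) made up 56.1% of the D4 list and 72.1% of the D5 list, with 58.5% to 76.9% in the others. Of the 10000 peaks with the highest −log10 q, 60.5% at D4 and 75.5% at D5 lay within 1 kb of a gene end (either end of a protein-coding gene). This share was 76.0% at D3 and 77.0% at D6, but 53.2% at 2i, 62.3% at D0 and 64.4% at D1. By this measure the D4 list lay within the range of the other lists. At a fold enrichment of 4.9 to 5.1 the median −log10 p was 7.71 at D4 and 8.62 at D5, so a peak of the same fold did not carry the same p in both lists. The 2i list had 7.69. Counts are therefore also given with equal numbers of top peaks, that is, with the 43341 D4 peaks of highest −log10 q against the whole D5 list.

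The DNA in front of 8 genes whose start was called on 1 of the 2 days is shown here, because starts of heart and smooth muscle genes were among those called at D5 and not at D4. Each sequence is the 250 bases before a RefSeq start (GRCm38.p6, the assembly of mm10), 5′ to 3′ on the gene's strand. Capitals mark matches, on either strand, to the GATA motif AGATAA, the T-box motif AGGTGTGA, the SOX motif ACAATGG, the TEAD motif ACATTCC or the TCF/LEF motif ATCAAAG. The first 6 are starts called at D5 only and the last 2 are starts called at D4 only.
Tnnt2: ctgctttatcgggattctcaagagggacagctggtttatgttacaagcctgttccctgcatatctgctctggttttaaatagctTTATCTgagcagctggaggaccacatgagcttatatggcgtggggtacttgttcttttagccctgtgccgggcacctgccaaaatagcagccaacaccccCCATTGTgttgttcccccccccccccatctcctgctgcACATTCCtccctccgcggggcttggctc
Acta2: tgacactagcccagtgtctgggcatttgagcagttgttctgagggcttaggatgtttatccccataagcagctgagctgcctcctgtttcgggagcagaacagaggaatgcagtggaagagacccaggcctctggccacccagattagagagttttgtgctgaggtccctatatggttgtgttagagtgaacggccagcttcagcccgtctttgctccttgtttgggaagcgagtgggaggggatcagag
Actc1: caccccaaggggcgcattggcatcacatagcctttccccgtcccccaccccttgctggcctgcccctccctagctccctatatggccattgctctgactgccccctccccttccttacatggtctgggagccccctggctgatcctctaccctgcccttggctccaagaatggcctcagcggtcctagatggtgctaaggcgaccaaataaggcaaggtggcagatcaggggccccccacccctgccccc
Nppa: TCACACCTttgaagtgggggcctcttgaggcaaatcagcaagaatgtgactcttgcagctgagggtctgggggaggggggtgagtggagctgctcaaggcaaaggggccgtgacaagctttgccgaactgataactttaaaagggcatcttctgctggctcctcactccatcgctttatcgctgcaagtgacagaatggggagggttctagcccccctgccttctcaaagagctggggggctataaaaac
Upk3b: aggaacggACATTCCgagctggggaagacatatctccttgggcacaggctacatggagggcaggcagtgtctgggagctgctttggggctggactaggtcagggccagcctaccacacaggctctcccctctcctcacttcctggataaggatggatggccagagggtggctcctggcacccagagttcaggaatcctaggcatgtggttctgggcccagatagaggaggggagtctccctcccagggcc
Nkx2-5: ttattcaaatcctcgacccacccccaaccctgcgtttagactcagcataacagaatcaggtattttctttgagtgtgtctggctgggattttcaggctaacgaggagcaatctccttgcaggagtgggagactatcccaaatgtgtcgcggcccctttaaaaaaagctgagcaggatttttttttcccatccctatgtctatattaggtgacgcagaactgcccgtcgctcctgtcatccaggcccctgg
Msgn1: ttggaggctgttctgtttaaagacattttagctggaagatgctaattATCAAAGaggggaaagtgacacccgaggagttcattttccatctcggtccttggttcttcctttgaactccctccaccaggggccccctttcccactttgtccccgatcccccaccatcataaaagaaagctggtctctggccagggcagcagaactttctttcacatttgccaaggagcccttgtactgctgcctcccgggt
Myom1: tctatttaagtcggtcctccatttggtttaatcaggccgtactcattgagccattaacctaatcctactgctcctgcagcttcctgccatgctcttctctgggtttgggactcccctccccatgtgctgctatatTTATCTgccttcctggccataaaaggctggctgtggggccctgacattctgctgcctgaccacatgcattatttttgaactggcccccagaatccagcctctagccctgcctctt

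These windows lie at chr1:135836084-135836333 on the forward strand (Tnnt2, cardiac troponin T), chr19:34255374-34255623 on the reverse strand (Acta2, smooth muscle actin), chr2:114052876-114053125 on the reverse strand (Actc1, cardiac actin), chr4:148000472-148000721 on the forward strand (Nppa, atrial natriuretic peptide), chr5:136038246-136038495 on the forward strand (Upk3b, a uroplakin of mesothelial cells), chr17:26841566-26841815 on the reverse strand (Nkx2-5, a cardiac homeobox factor), chr12:11208949-11209198 on the reverse strand (Msgn1, a factor of the presomitic mesoderm) and chr17:71019307-71019556 on the forward strand (Myom1, myomesin of the sarcomere's M band). The Tnnt2 window held a GATA, a SOX and a TEAD match. A T-box match opened the Nppa window, a TEAD match lay near the distal end of the Upk3b window, and the Msgn1 window had a TCF/LEF match. The Myom1 window held a GATA match, while the windows of Acta2, Actc1 and Nkx2-5 held none of these letters. Among all 21020 distinct windows, 8.84% held the GATA motif, 1.01% the T-box motif, 2.39% the SOX motif, 2.86% the TEAD motif and 2.85% the TCF/LEF motif. A match is a string of letters and not evidence of binding, and a window with no match says nothing about the factor.

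Across all merged regions, 39% were called at D4 and not D5, and 20.5% at D5 and not D4. The shared regions made up 40.5% (40.1% to 40.9%). A region not called on a day is not shown to be closed on it, and in a bulk assay a larger share of cells with an open region cannot be told apart from a region more open in each cell. Seen from each list, 66.5% of the 37849 D5 intervals overlapped a D4 interval and 51.2% of the 49507 D4 intervals overlapped a D5 interval. The greater number of D4 only regions went with the longer D4 list: with equal numbers of top peaks there were 14332 D4 only, 14903 D5 only and 22853 shared regions. With the top 20000 peaks of each list the counts were 5419, 5785 and 12143. Regions that had a −log10 q of at least 5 on their own day and no peak at all on the other numbered 7483 for D4 and 6340 for D5.

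**Figure D1:**
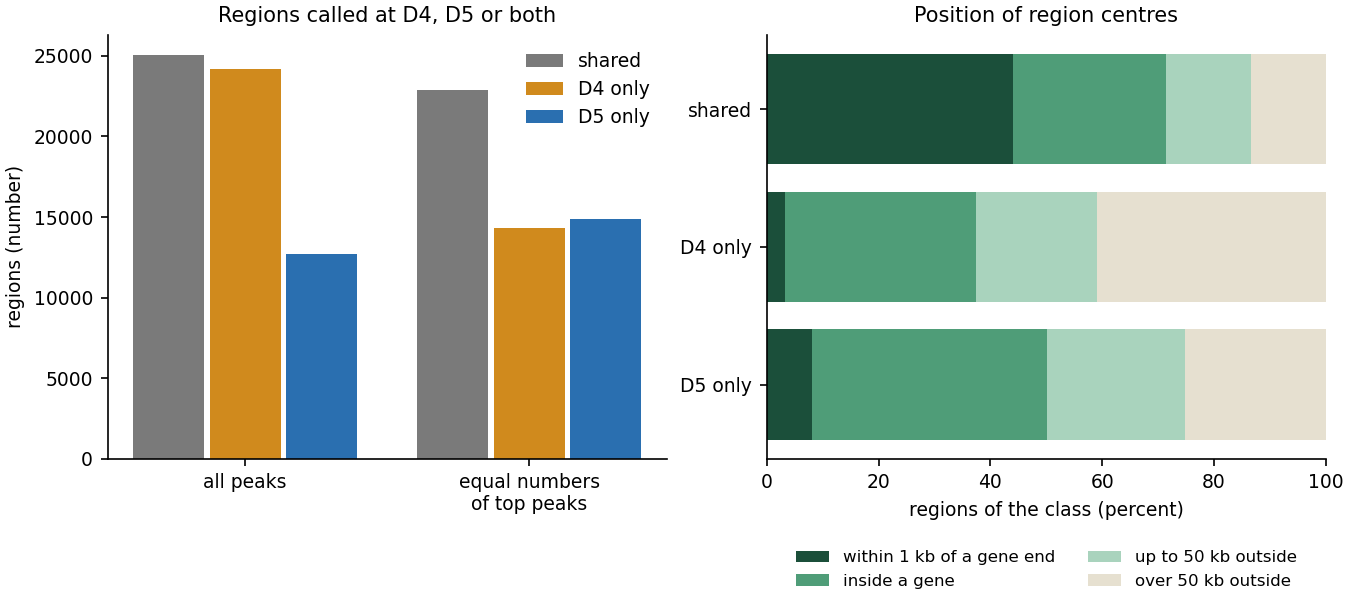
Left, the number of shared (grey), D4 only (orange) and D5 only (blue) regions from all peaks and from equal numbers of top peaks. Right, the share of each class by the position of the region's centre relative to protein-coding genes; 44.0% of shared regions lay within 1 kb of a gene end, against 3.22% of D4 only and 8.02% of D5 only regions.

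Shared regions were wide and strong, and regions of a single day narrow and weak. The median width was 796 bp for shared, 367 bp for D4 only and 369 bp for D5 only regions, the shared width being that of intervals merged over both days. Within the D4 list the median −log10 q was 11.1 in shared and 3.65 in D4 only regions. Within the D5 list it was 20.5 in shared and 4.98 in D5 only regions. Most single-day regions had 1 summit, with 2 or more in 2.64% of D4 only and 4.25% of D5 only regions, against 20.1% of the shared regions in the D4 list and 15.9% in the D5 list.

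The single-day classes differed in where they lay. A gene end was within 1 kb of the centre of 44.0% of shared regions, 8.02% (7.56% to 8.51%) of D5 only regions and 3.22% (3.01% to 3.45%) of D4 only regions. Far from genes, over 50 kb outside any gene body, lay 40.9% of D4 only, 25.2% of D5 only and 13.3% of shared regions. With equal numbers of top peaks the gene-end shares were 3.11% for D4 only and 9.78% for D5 only regions, and the shares over 50 kb away were 39.2% and 24.3%. Among regions strong on their own day and absent from the whole other list, 2.63% of the D4 set and 8.52% of the D5 set lay at a gene end. So the D5 only set had the higher share at gene ends and the lower share far from genes in each of these settings. The size of the gene-end shares depended on how many peaks entered: with the top 20000 peaks of each list they were 6.26% for D4 only and 34.3% for D5 only regions, and with the −log10 q limit of 5 in both lists 3.57% and 16.2%.

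D4 only regions that lay inside genes were often in very long ones. The gene around such a region had a median length of 200.1 kb, against 116 kb for D5 only and 45.4 kb for shared regions. Genes of at least 500 kb held 23.7% of the D4 only, 12.4% of the D5 only and 6.42% of the shared regions that lay in a gene. Macrod2, an ADP-ribose hydrolase gene of 1998 kb, had 69 D4 only and 11 D5 only regions in or within 50 kb of it. Other very long genes followed, with 51 D4 only regions at Nrxn3, 38 at Robo2, 36 at Dlg2 and 34 at Pcdh15, and 3, 2, 10 and 4 D5 only regions at the same genes. The most D5 only regions were at Frmd4a (15, with 7 D4 only), Cdh13 (14 and 16), Auts2 (13 and 15) and Tenm2 (12 and 13), each 596 kb or longer, and then at Bcor (11 and 3), a corepressor gene of 124 kb. Frmd4a and Bcor had more D5 only than D4 only regions, and the other 3 had more D4 only regions.

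The other 10 lists, which had no part in forming the classes, treated them differently. Of the D4 only regions, 64.6% (64.0% to 65.2%) were called in none of the other lists, 17.2% in earlier lists alone, 8.81% in later lists alone and 9.38% in both. Of the D5 only regions, 24.3% (23.6% to 25.1%) were called in no other list, 45.8% in later lists alone, 4.70% in earlier lists alone and 25.2% in both. The D5 only regions were found again in 32.5% of cases at D6, 65.7% at D7, 48.4% at D8 and 16.6% at D15. For D4 only regions these shares were 3.23%, 14.7%, 9.16% and 3.44%. Looking back by a day, 10.1% of D4 only regions were called at D3, and so were 22.1% of the D5 only regions. Both D3 and D6 held a peak in 13.8% of the D5 only regions, in which D4 is then the single list without a call among the 4 from D3 to D6.

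**Figure D2:**
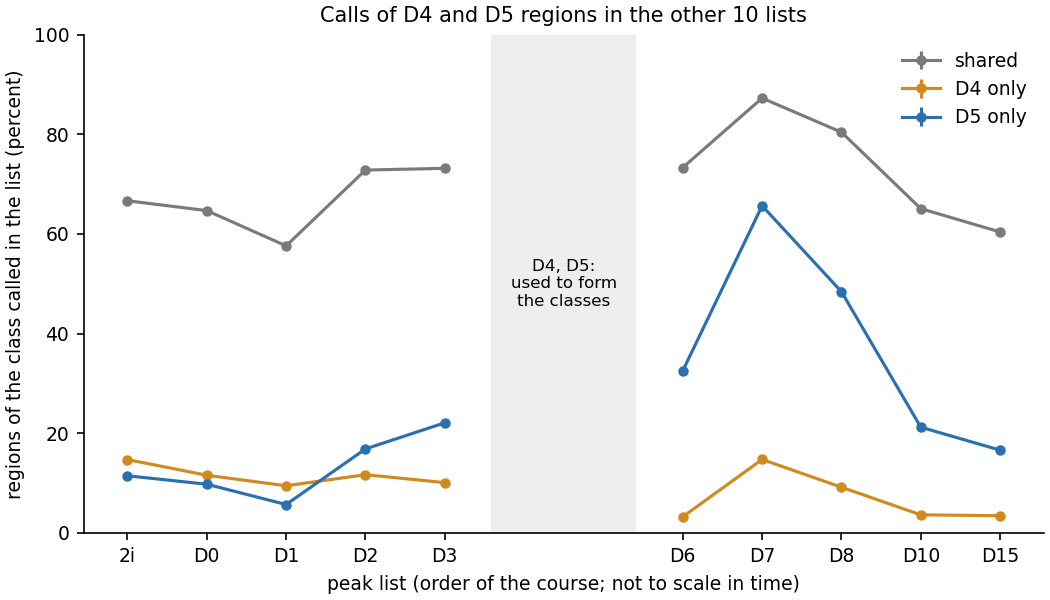
Share of shared (grey), D4 only (orange) and D5 only (blue) regions that held a peak in each of the 10 lists that did not form the classes; bars are Wilson 95% intervals and are mostly smaller than the points. D5 only regions reach 65.7% at D7, while D4 only regions stay at or below 14.7% in every list.

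The lists differ in length, from 66993 peaks at D7 to 31324 at D1, with 32791 at D6, and the part of this in the shares was not tested. Limiting both days to regions strong on their own day and absent from the whole other list gave 57.6% of the D4 set and 16.9% of the D5 set in no other list, and 9.66% and 53.6% in later lists alone. With the top 20000 peaks of each list 36.5% of D4 only and 4.55% of D5 only regions were in no other list, and 76.7% of the D5 only regions were called at D6. Among the shared regions, 12.1% were called at no earlier stage and again after D5, and 78.6% had calls both before D4 and after D5.

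Gene starts were compared for the 17274 protein-coding genes with a RefSeq start, by peaks that touched the window from 250 bases before to 50 bases after a start. Of these genes, 9978 were called on both days, 6383 on neither, 635 (3.68%) at D5 only and 278 (1.61%) at D4 only. With equal numbers of top peaks the single-day counts were 920 for D5 and 192 for D4. As only the D4 list is shortened there, the D5 count could not fall and the D4 count could not rise. A peak that touches a window may be the edge of a region called on both days: this was so for 162 of the 635 and for 52 of the 278 genes. Most starts called at D5 only had been called before. Of the 635, 80.8% were called at D3 and 75.3% at D6, 525 were called both before D4 and after D5, 67 in later lists alone and 27 in no other list. Of the 278 starts called at D4 only, 38.1% were called at D3, 80 were in no other list and 32 in later lists alone.

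Heart and smooth muscle genes stood among the 67 starts first called at D5 and called again later. Among 308 genes in 23 groups chosen for this course, 217 had a listed start, of which 25 (11.5%) were called at D5 only and 10 (4.61%) at D4 only, both above the shares of all genes. Of the 67 starts first called at D5 and again later, 8 were those of group genes, and only these are named. They included Tnnt2, Acta2, Actc1, Nppa and Upk3b, whose DNA is printed above. The others were Ldb3 (a Z-disc protein), Slc8a1 (the sodium-calcium exchanger) and Smarcd3 (the cardiac subunit of a chromatin remodelling complex). The starts of Tnnt2, Acta2, Slc8a1 and Upk3b were called in every list from D5 to D15. Those of Actc1 and Ldb3 were called from D5 to D8, and that of Nppa at D5 and D7. Strength within the D5 list, where the median −log10 q was 10.1, ranged over these starts from 52.9 at Acta2 through 10.1 at Actc1 and 8.76 at Tnnt2 to 1.87 at Nppa and 1.85 at Slc8a1. Starts of Myh7 (beta myosin heavy chain) and Myl7 (atrial myosin light chain) were called in the D5 list alone among all 12. Their −log10 q was 5 and 3.73, below the median of that list.

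**Figure D3:**
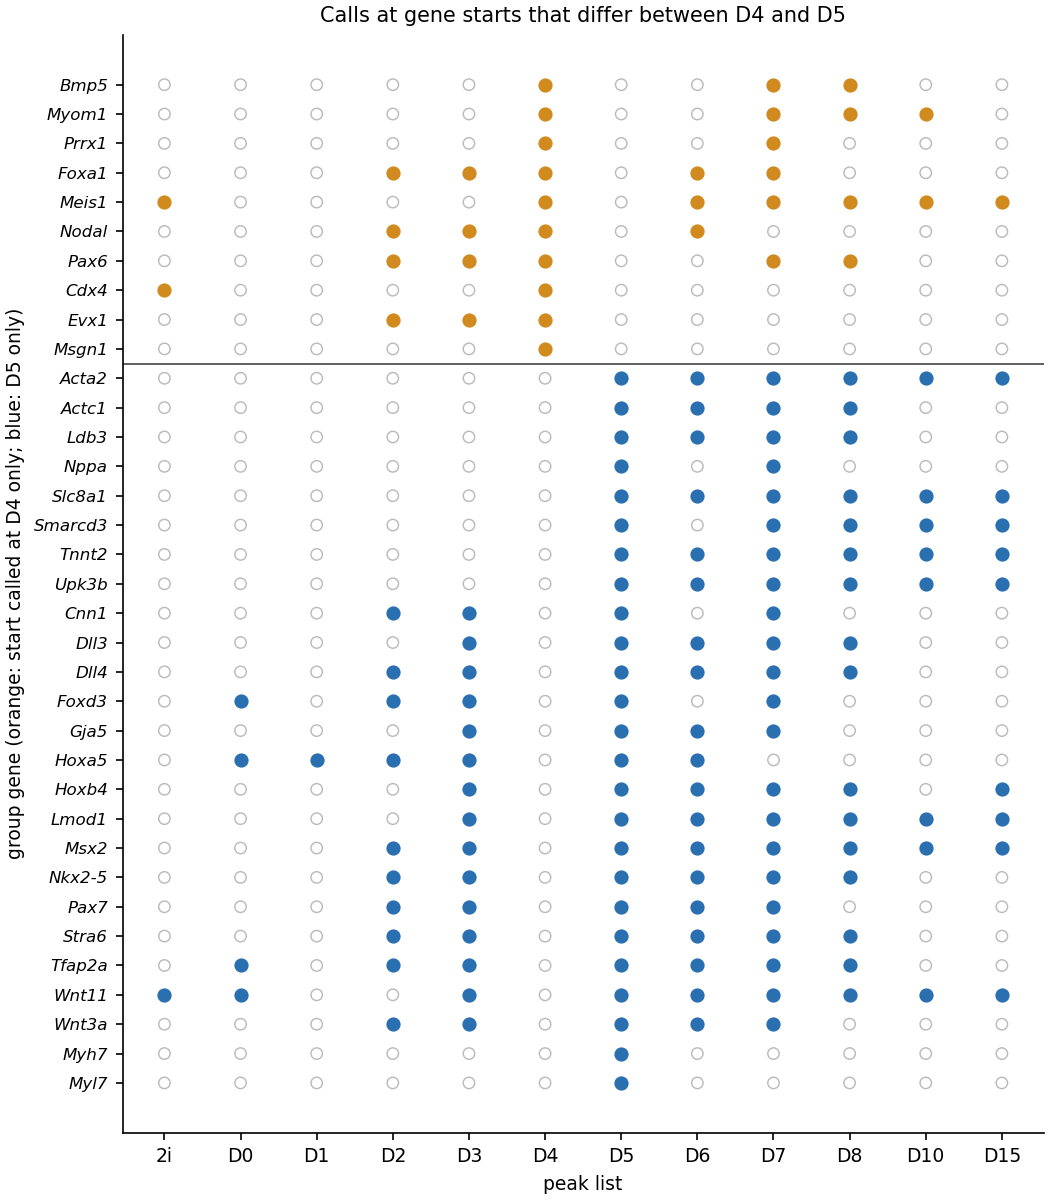
Calls in each of the 12 lists (filled circle, called; open circle, not called) at the starts of the 35 group genes whose start was called at D4 only (orange, above the line) or D5 only (blue, below it). The 8 blue genes at the top have no call before D5; the 15 that follow were called before D4 as well.

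A further 15 of the 25 genes had a start that was called before D4, missing at D4 and called again at D5 and later. This history was less common among them than among all 635 D5 only starts, of which 82.7% had it. Nkx2-5 was called at D2, D3 and D5 to D8. Wnt11 (a non-canonical Wnt ligand), Msx2 (a BMP-responsive homeobox factor), Hoxb4, Hoxa5, the Notch ligands Dll3 and Dll4, Gja5 (an atrial connexin), Cnn1 and Lmod1 (smooth muscle proteins), Stra6 (the retinol carrier), Wnt3a, Foxd3, Pax7 and Tfap2a behaved likewise, with D3 called for all 15. For Dll3 alone among the 25 the peak at the window belonged to a region that was also called at D4 outside the window.

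The 10 starts called at D4 and not D5 came in part from the same groups, Myom1 being a sarcomere gene and Meis1 a cardiac progenitor factor. With equal numbers of top peaks 7 of the 10 were still called at D4 only. That setting shortens the D4 list alone, so it could not remove any of the 25 D5 only starts and does not check them. Msgn1 was called in no other list. Evx1, a streak and posterior homeobox gene, was called at D2, D3 and D4, and Cdx4 at 2i and D4. Nodal, the ligand that patterns the streak, was called at D2, D3, D4 and D6. Meis1, a homeobox cofactor, was called at 2i, D4 and from D6 to D15, so that D5 was its single gap after D4. Bmp5, Prrx1 and Myom1 were called at D4 and again at D7 but not at D5 or D6, and Foxa1 and Pax6 were called from D2 to D4 and again at D7, Foxa1 also at D6. At Cdx4, Evx1 and Foxa1 the D4 peak belonged to a region that D5 also had, outside the window. Within the D4 list, where the median −log10 q was 5.78, the values ran from 10.6 at Foxa1 and 10.0 at Myom1 to 2.41 at Meis1 and 1.53 at Bmp5.

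The windows of single-day starts also differed in base composition from the windows called on both days. Here only the 250 bases before a start were used. The median GC content was 62% in windows called on both days, 58% in those of D5 only, 52.4% in those of D4 only and 46.8% in windows called on neither. The median number of CpG dinucleotides was 17, 11, 5 and 2 in the same order. The GATA motif was in 14.3% (11.2% to 18.2%) of the 384 D4 only windows and 6.18% (4.73% to 8.04%) of the 825 D5 only windows, with 14.8% in windows called on neither day. The GC box GGGGCGGGG was in 7.03% of D4 only and 15.2% of D5 only windows, with 2.86% in windows called on neither day. The NKX motif CACTTGA was in 4.69% (2.99% to 7.29%) of D4 only and 1.70% (1.01% to 2.83%) of D5 only windows, with 4.21% on neither day. The E-box CANNTG was in 70.8% (66.1% to 75.2%) and 62.1% (58.7% to 65.3%), with 74.0% on neither day. For these motifs, out of 15 searched, the D4 only windows were nearer to the windows called on neither day than the D5 only windows were. The other motifs had intervals that overlapped between D4 only and D5 only windows, among them the T-box motif, at 1.56% (0.72% to 3.37%) and 2.06% (1.29% to 3.28%).

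Regions were then assigned to the nearest protein-coding gene within 50 kb, which placed 14271 D4 only and 9498 D5 only regions. At least 1 D4 only region fell to 29.8% of the 21631 genes and at least 1 D5 only region to 26%. D5 only regions made up 39.96% of the single-day regions near all genes, and 56.4% with equal numbers of top peaks, and a group's share is read against those values. Of the D4 only regions near all genes 58.6% were in no other list, and of the D5 only regions 44.5% were in later lists alone and 29.8% had calls both before D4 and after D5. Most groups lay above the share of all genes: 20 of the 23, and 19 with equal numbers of top peaks. A share above it is therefore not particular to a group. With the top 20000 peaks of each list the D5 share near all genes was 56.5%. In that setting 13 of the 23 groups lay above it, and 9 changed sides relative to it. Regions near 1 gene are not independent of each other, a gene such as Kdr or Bmp5 can stand in several groups, and the groups were chosen with earlier results of these data known.

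**Figure D4:**
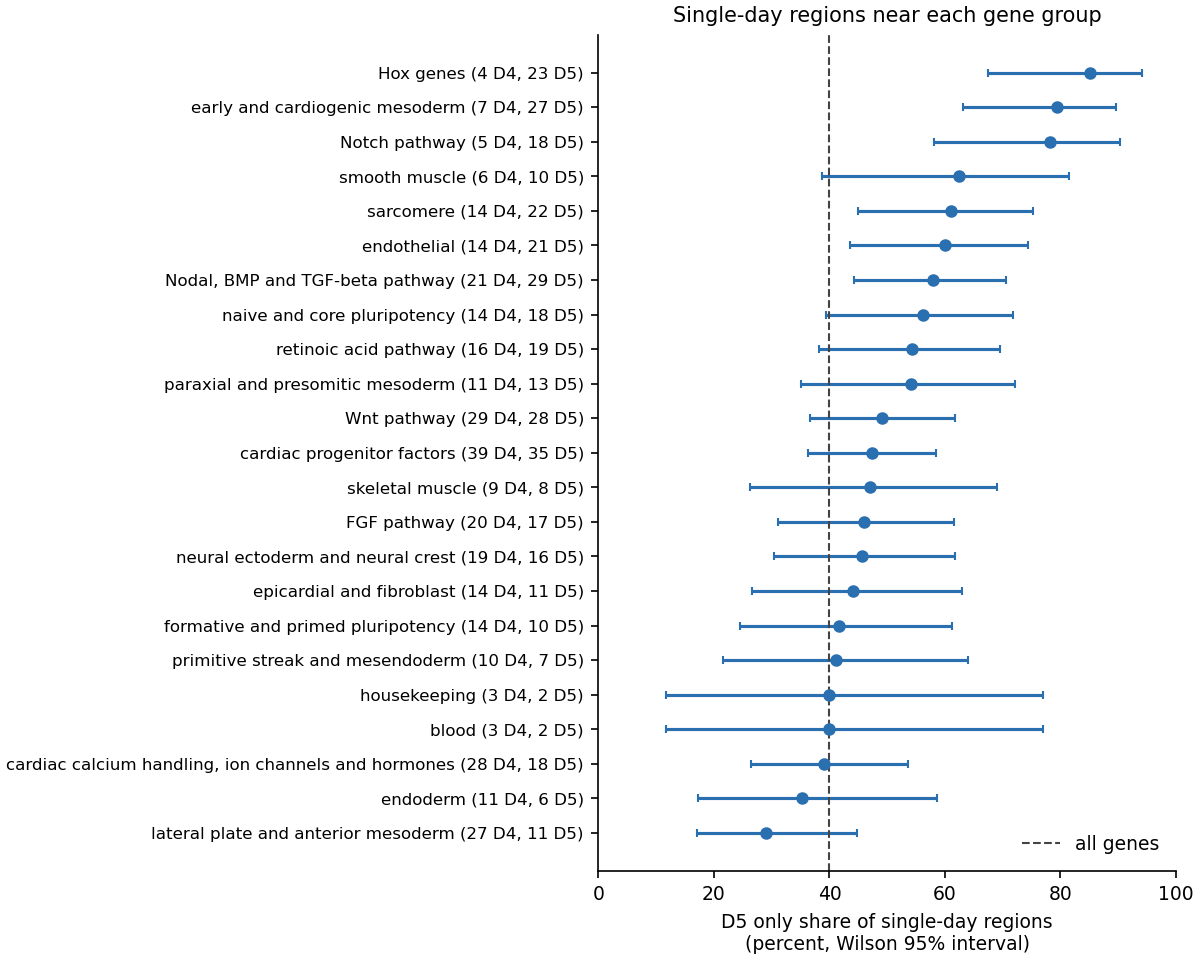
D5 only regions as a percent of all single-day regions assigned to the genes of each of 23 groups, with Wilson 95% intervals; the counts of D4 only and D5 only regions stand beside each name and the dashed line marks the 39.96% of all genes. Of the 23 groups, 20 lie to the right of the line, with Hox genes, early and cardiogenic mesoderm and the Notch pathway farthest.

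Early and cardiogenic mesoderm genes had 7 D4 only and 27 D5 only regions near them, and 1 and 33 with equal numbers of top peaks. Of these 16 genes, 13 had at least 1 D5 only region (81.2%, against 26% of all genes). A D4 only region was near 4 of them (25%, against 29.8% of all genes). Of the 27 D5 only regions 15 (55.6%, against 44.5% near all genes) were called again in later lists and in no earlier one. None of the 7 D4 only regions was in any other list, as were 58.6% of the D4 only regions near all genes. Kdr, a VEGF receptor of mesodermal and endothelial progenitors, had 5 D5 only, 3 shared and no D4 only regions, the strongest D5 only one at chr5:75929101-75929505, 3.52 kb outside the gene. Pdgfra, a receptor of cardiogenic mesoderm, had 2 D5 only regions, and the one at chr5:75149850-75150478, 2.09 kb upstream of a listed start, was called from D5 to D8. Zfpm1, a GATA cofactor, had 5 D5 only regions, 3 of which were first called at D5 and found again at D6, D7 and D8. With or without earlier calls, 26.4% of all D5 only regions were called at D6, D7 and D8. Mesp1, the bHLH factor that marks cardiac mesoderm, had 3 shared regions and 1 D5 only region, and Mesp2 1 shared region and none of a single day.

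The group of Hox and Cdx genes, which set position along the body axis, had a D5 share of 85.2% (67.5% to 94.1%), with 4 D4 only and 23 D5 only regions (3 and 23 with equal numbers). Here 20 of the 23 D5 only regions (87.0%, against 29.8% near all genes) had been called before D4 and were called again after D5. At the Hoxa cluster, a region inside Hoxa3 at chr6:52191181-52192362 was called from D1 to D3 and from D5 to D15, and regions at Hoxa5, Hoxa7 and Hoxa9 were likewise called at D3 and D5 and not at D4. Hoxb1, the anterior Hox gene that retinoic acid induces, had 4 D5 only regions, the strongest at chr11:96368694-96369384 called at D3, D5 and D6. Hoxd3 had 4 D5 only and 2 D4 only regions, the only Hox gene here with several of both.

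Notch pathway genes had 5 D4 only and 18 D5 only regions (2 and 21 with equal numbers). Of the 18, 11 (61.1%, against 29.8% near all genes) had calls before D4 and after D5. Receptors Notch1, Notch2 and Notch3 had 3 D5 only regions each, and Notch3 also had 1 D4 only region. The target Hes7, the oscillator of somite formation, had 3 D5 only regions, the strongest at chr11:69122363-69122939. Hes1 had a D5 only region at chr16:30065096-30065358, 0.13 kb outside the gene, called at D2 and D3 from D5 to D7 and at D15.

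Factors of the cardiac progenitors had 39 D4 only and 35 D5 only regions in all, a D5 share of 47.3% (36.3% to 58.5%), and differed from gene to gene. With the top 20000 peaks the counts were 20 and 15, a share of 42.9%, which is below that of all genes in that setting. With equal numbers of top peaks they were 23 and 42, a share of 64.6% against 56.4% near all genes. With the −log10 q limit of 5 in both lists they were 24 and 34, a share of 58.6% against 55.3%. Nkx2-5 had 2 D5 only regions and no other: 1 at its start and 1 at chr17:26850770-26851116, 9.38 kb upstream, both called at D2, D3 and D5 to D8. Tbx5, a T-box factor of the first heart field, also had D5 only regions alone, 3 of them, the strongest inside the gene at chr5:119874888-119875892 with a −log10 q of 22.6 and calls at D3 and from D5 to D8. Tbx1, of the second heart field, had 5 D5 only regions and nothing else. Hand2 had 7 shared regions, 1 D4 only region 6.66 kb upstream that no other list held and 1 D5 only region 11.1 kb downstream of its start that was called from D5 to D15. Gata4 had 3 shared and 2 regions of each single day, and inside the gene a D4 only region at chr14:63268428-63268761 and a D5 only region at chr14:63269131-63269801 stood side by side.

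Meis2 was the opposite case, with 9 shared, 8 D4 only and no D5 only regions. Of the 8, 5 were called on no day but D4, near the 58.6% of D4 only regions near all genes. Its relative Meis1 had 5 D4 only and 4 D5 only regions. The strongest D4 only region at Meis1, chr11:19026617-19027707, 8.19 kb upstream of a listed start, was called from D2 to D4 and from D7 to D15. The strongest D5 only region, chr11:19022811-19023572, 4.22 kb upstream, was called at D5 and D6. Fgf10, a ligand of the second heart field, had 5 D4 only and 3 D5 only regions, Isl1 2 and 1, and Mef2c, a cardiac MADS box factor, 3 and 3.

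**Figure D5:**
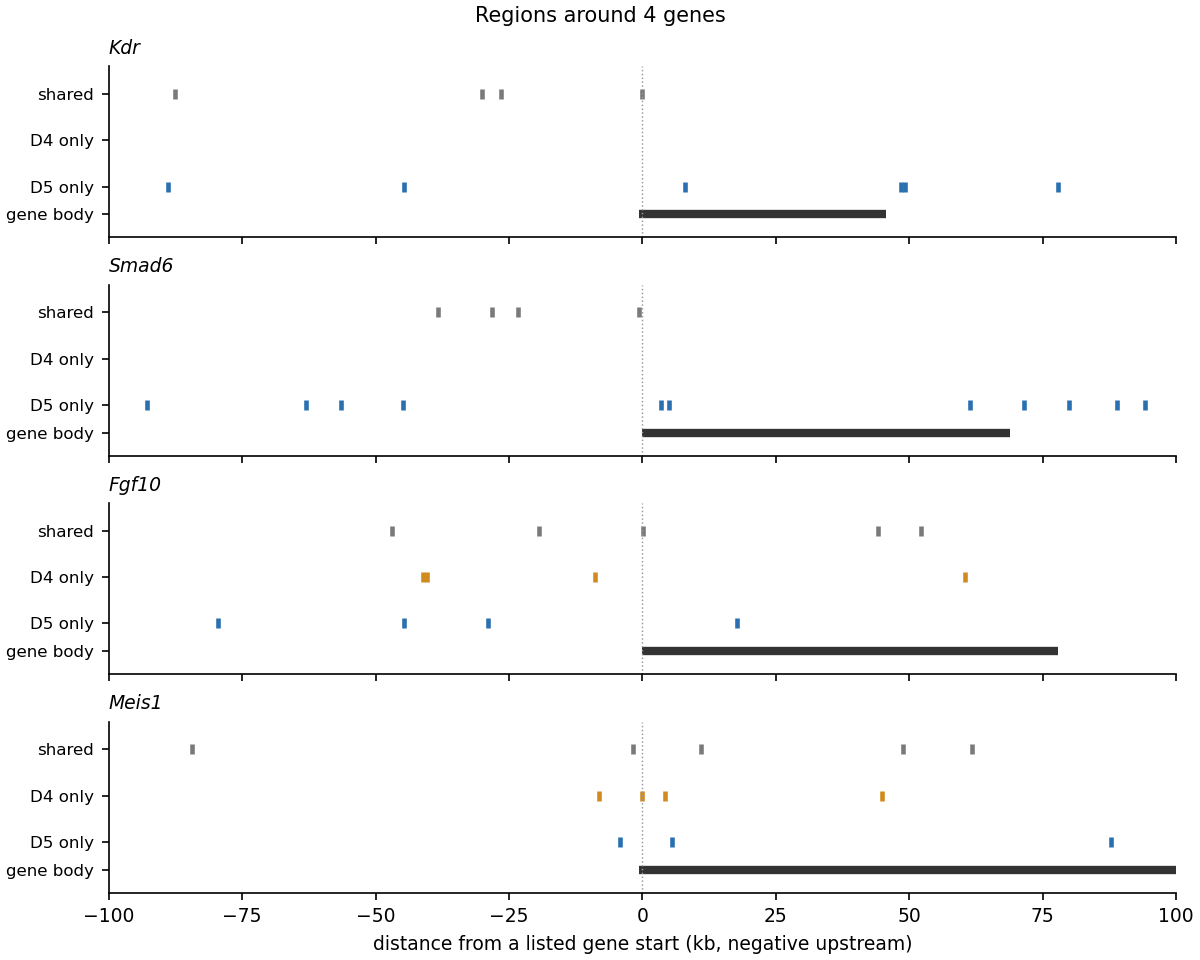
Regions within 100 kb of a listed start of Kdr, Smad6, Fgf10 and Meis1, drawn by the distance of the region's centre from the start (negative is upstream) in 3 rows for shared, D4 only and D5 only; the bar is the gene body. Kdr and Smad6 have no D4 only region in this span, while Fgf10 and Meis1 have both kinds.

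Sarcomere genes had 14 D4 only and 22 D5 only regions (9 and 26 with equal numbers), and 13 of the 22 (59.1%, against 44.5% near all genes) were found again only in later lists. The strongest of them lay at Nebl, which encodes a Z-disc protein, at chr2:17523662-17524268 with a −log10 q of 31.8 and calls from D5 to D15. A region inside Csrp3, the muscle LIM protein, at chr7:48830430-48830961 was called from D5 to D8, and the same gene had 3 D4 only regions. Actc1 had beside its start call a D4 only region at chr2:114066970-114067582, 14.4 kb upstream, that was strong in the D4 list (−log10 q 34.1) and in no other list. Ttn had 3 D4 only and 2 D5 only regions, and Myh6 none of any class. Among genes of calcium handling, ion channels and hormones the counts were 28 and 18, a D5 share of 39.1% that is near that of all genes, and 21 of the 28 D4 only regions (75%, against 58.6% near all genes) were in no other list. Slc8a1 gave 12 of the 28, while Cacna1c, the L-type calcium channel, had 2 D4 only and 7 D5 only regions. All 7 were called again at D7 or D8, where 65.7% and 48.4% of all D5 only regions were called. Smooth muscle genes had 6 and 10, and endothelial genes 14 and 21, which became 5 and 4 with the top 20000 peaks. Tek, the angiopoietin receptor, held 3 D5 only regions called again at D7, as were 65.7% of all D5 only regions.

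Lateral plate and anterior mesoderm genes were the group with the lowest D5 share, with 27 D4 only and 11 D5 only regions (28.9%, 17.0% to 44.8%). Bmp5 and Prrx1, a ligand and a homeobox factor of the lateral plate, had 6 D4 only regions each and no D5 only region. Of the 27, 17 (63.0%) were in no other list, near the 58.6% of all genes. With stricter lists the order was the reverse: with the top 20000 peaks of each list the group had 4 D4 only and 16 D5 only regions, against a D5 share of 56.5% near all genes, and with both lists limited to a −log10 q of 5 or more 5 and 13.

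Among the signalling pathways, Nodal, BMP and TGF-beta genes had 21 D4 only and 29 D5 only regions. Smad6, an inhibitor of BMP signalling, had 8 D5 only and no D4 only region, the largest excess of D5 only regions over D4 only regions of any gene tied with that of Bcor, Igsf21, Dlc1 and Frmd4a. Its strongest D5 only region at chr9:63941755-63942327 lay 11.04 kb outside the gene and was called from D5 to D10. Bmp7 had 4 D5 only and 1 D4 only region, and Bmp2 3 D4 only regions and no D5 only region. Wnt pathway genes had 29 and 28: Wnt11, the non-canonical ligand, had 6 D5 only and 1 D4 only region, and Axin2, a target and inhibitor of the canonical pathway, had 7 D4 only and 3 D5 only regions. FGF pathway genes had 20 and 17, of which Fgfr2, a receptor, gave 7 D4 only and 2 D5 only regions. Retinoic acid genes had 16 and 19 (6 and 25 with equal numbers). Of the 16 D4 only regions 12 (75%, against 58.6% near all genes) were in no other list. Rarb, a retinoic acid receptor, had 6 of each, and Stra6 had 3 D5 only regions.

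Genes of earlier and other fates had single-day regions of both kinds. Naive and core pluripotency genes had 14 D4 only and 18 D5 only regions. Pou5f1 had a single D4 only region, 0.94 kb upstream of its start and called at 2i, D1, D2 and D3 as well. Nanog had 3 D4 only and 1 D5 only region, the latter called in every list but D4. Of the D5 only regions of this group 5 were at Tbx3, a T-box gene that also acts in the heart, and 2 of those were called from D5 to D8 and in no earlier list. Streak and mesendoderm genes had 10 and 7, with Gsc, the organizer homeobox gene, at 3 D4 only and 1 D5 only region, while T (brachyury) and Mixl1 had 1 shared region each and none of a single day. Endoderm genes had 11 and 6, blood genes 3 and 2, neural and neural crest genes 19 and 16, and skeletal muscle genes 9 and 8. Housekeeping genes had 3 and 2 single-day regions beside 14 shared ones, and 0 and 5 with the top 20000 peaks. Their D5 share of 40% (11.8% to 76.9%) rests on too few regions to be placed against that of all genes.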

How the data were processed

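The deposited peak lists (narrowPeak) were the input, 1 list a day for 2 replicates per the labels. Cutadapt 2.10, Bowtie2 2.3.2, SAMtools 1.5, Picard, MACS2 2.1.1 and mm10 are named in the submitters' processing notes, with no order or settings. The sequencing depth, any shift of reads for the transposase and the way replicates were combined were not given in the sources used here. Each deposited peak carries the authors' score, fold enrichment (a ratio over local background), −log10 p and −log10 q. These values were used to rank, filter or describe the peaks of each list. Summaries of them were also set side by side across lists, and the same −log10 q limit was applied to D4 and D5. Signal tracks were not used here.

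Peaks of a list that overlap were merged to intervals, and intervals of D4 and D5 to regions by an overlap of at least 1 bp. A region's centre was placed against 21631 protein-coding genes, and starts were taken from RefSeq promoter windows for 17274 of them (GRCm38.p6). Regions were assigned to the nearest gene within 50 kb. Motifs were searched only in the promoter windows, since no genome was given. Intervals are Wilson 95% intervals of counts. The code (Python 3.11.15, numpy 2.4.6, pandas 2.3.3, matplotlib 3.10.9) was tested on simulated lists. Alternatives were equal numbers of peaks, the top 20000, a −log10 q of at least 5, other overlaps, windows and assignment limits, and a merge over 12 lists.

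The comparison, the gene lists and the settings were chosen with earlier results of these data known. Genes were named by rule: 40 marker genes, up to 3 genes a group with the most D4 only and 3 with the most D5 only regions, 5 genes with the most of each among all genes, and the strongest region of a gene and class. Group genes with a single-day start, the 4 genes drawn as maps and other genes given by their counts or start calls were chosen after their values were seen.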

Additional observations from a re-analysis of the deposited data

How the results depend on the processing

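Each setting was changed by itself; no test was made under any of them. With equal numbers of top peaks there were 14332 D4 only regions, shared regions were 43.9% of all, D4 only regions lay over 50 kb from genes in 39.2%, in no other list in 60.6% and at D3 in 11.4%, and D5 only regions at gene ends in 9.78%, over 50 kb away in 24.3%, in no other list in 22.5% and at D6 in 35.3%. With the top 20000 peaks there were 12143 shared (52.0%), 5419 D4 only and 5785 D5 only regions; for D4 only the gene-end share was 6.26%, over 50 kb 32.5%, no other list 36.5% and D3 28.7%, and for D5 only 34.3%, 17.9%, 4.55% and, at D6, 76.7%. With a −log10 q of at least 5 in both lists there were 9505 D4 only regions and 47.8% shared; the D4 only shares were 3.57%, 35.9%, 49.7% and 17.6% in the same order, and the D5 only shares 16.2%, 23.0%, 12.9% and 52.1%. With that limit on a region's own day and the whole other list there were 7483 D4 only and 6340 D5 only regions. An overlap of at least 50% gave 39.6% shared. A gene-end window of 500 bp gave 1.85% for D4 only and 5.74% for D5 only regions, and 2 kb gave 5.60% and 11.6%. With the top 5000, 10000, 30000 and 40000 peaks, sizes chosen after seeing the data, shared regions were 36.2%, 49.2%, 48.3% and 44.9%, the D5 only gene-end share 83.6%, 71.8%, 17.3% and 10.9%, and the D4 only share 48.1%, 23.3%, 3.66% and 3.20%. The gene-end share was higher for D5 only than for D4 only regions in each of these settings. The cause of these shifts was not tested. Another 19 counts, widths and shares were held to be the same, by a looser measure for counts and widths than for shares. Among them were the shared regions, 25056 as first given and 17646 with the −log10 q limit in both lists. The median width of D4 only regions, 367 bp as first given and 406 bp with equal numbers, was another. Of the D5 only shares near gene groups and all genes, 91 stayed within the counting interval of the value first given and 29 did not. The side of a group relative to all genes changed for 3 of 23 groups with equal numbers, 9 with the top 20000 peaks, 5 with the −log10 q limit, and 3 each with assignment within 20 kb and 100 kb. Gene starts were recomputed only with equal numbers of top peaks. No paired analysis was possible because 1 list stands for both replicates of a day, and for the same reason no replicate could be left out. Depth is unknown.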

Other observations

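The 6 strongest D5 only regions were 236 to 264 bp wide, while most of the next in rank were wider. All 6 were called at D2, D3 and from D5 to D7, and none at 2i, D0, D1 or D4. The highest −log10 q in the D5 list without a D4 call, 434, was at chr17:70963656-70963901, 10.2 kb outside Myl12b, a region of 246 bp, and the next, 405, at chr16:17222267-17222507, 8.41 kb outside Rimbp3, was 241 bp wide. These 2 regions were called at D2, D3 and in every list from D5 to D15. The strongest D5 only region with no earlier call, at chr1:165046457-165047144, had a −log10 q of 103 and was called from D5 to D15, 91.0 kb from the nearest gene. Among the D4 only regions the strongest, at chr9:85439601-85440033, had a −log10 q of 96.8 within the D4 list and was in no other list, as were the next 2, inside Mctp1 (67.5) and 21.0 kb outside Tdrd3 (66.3).

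Some single-day regions of the 2 days were neighbours. Within 1 kb of a D5 only region lay 437 D4 only regions (1.81%), and within 1 kb of a D4 only region 435 D5 only regions (3.43%). At Rarb a D4 only region at chr14:16741927-16742675 stood beside a D5 only region at chr14:16741646-16741877. Upstream of Nanog the D4 only region chr6:122670123-122670375 stood beside chr6:122669480-122669863, the D5 only region that the other 10 lists also held. For such pairs the counts of single-day regions hold a position that both days had called within 1 kb.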
